A study of Homo sapiens with 15 samples.

Results

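H/ACA small nucleolar RNA (snoRNA) and small Cajal body RNA (scaRNA) genes were examined in C4-2B prostate cancer cells. Members were taken by symbol alone, as SNORA or SCARNA followed by a number and optional letters, and 235 of the 58302 genes in the count tables met this rule, 210 SNORA and 25 SCARNA genes. No measured value entered the choice. The labels describe 15 RNA-seq libraries in 5 groups of 3 replicates, and count tables of the C4-2B group were analysed here. C4-2B is an established adenocarcinoma line derived from LNCaP, labelled wild type, with no treatment given in its labels. The other groups, not analysed here, are the neuroendocrine-like lines DKD, derived from LNCaP C4-2, and ER, C4-2B kept under continuous enzalutamide, each given scr (control) or siPax5, the Pax5 siRNA, for 48 h. The comparisons that the labels set up, between adenocarcinoma and neuroendocrine-like cells and between siPax5 and scr, were therefore not made.

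H/ACA snoRNAs fold into hairpins followed by an H box and a terminal ACA, and they direct the enzyme dyskerin to the uridines that it turns into pseudouridine in ribosomal RNA. A few act in cleavage of the ribosomal RNA precursor instead. scaRNAs guide the same kind of modification, or 2′-O-methylation, on spliceosomal RNAs in the Cajal body, and their class includes H/ACA, C/D and mixed RNAs. In human cells most of these RNAs are trimmed out of introns of a host gene after splicing, and the host may be a ribosomal protein gene or a long non-coding snoRNA host gene (SNHG).

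Summed over genes, replicates 1, 2 and 3 of C4-2B came to 44992971, 49569026 and 46232076 counts. All 6 prostate luminal markers were high, from 197 to 1988 TPM (counts scaled for gene length and library), with KLK3 the highest. Of the neuroendocrine markers, CHGA and SYP stood at 1.38 and 1.31 TPM and ENO2, which is not restricted to these cells, at 42.9 TPM. The leukocyte markers reached at most 0.215 TPM, 2 of 3 fibroblast markers were at 0 with COL1A1 at 7.09 TPM, and the endothelial markers reached 2.91 TPM for VWF. The luminal markers therefore fitted the label. Each pair of libraries differed by more than independent read pairs would, with 38 to 223 genes past the threshold described below. No library was counted as a duplicate of another. Whether repeated reads of 1 molecule account for these differences was not tested. Nothing in the labels says that the replicates were separate cultures, so SDs and p-values measure only the spread between these libraries, which may be technical.

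The members together had 15119, 18301 and 16252 counts in replicates 1, 2 and 3, or 0.0352% ± 0.00166 of all counts (SD, n = 3). SNORA genes took 0.0237% and SCARNA genes 0.0115% ± 0.000108 (SD, n = 3). The SCARNA share was nearly the same in each library. Of the 235 members, 112 had at least 1 count in every library, 17 in some libraries and 106 (45.1%) in none, beside 36.5% of all genes with none. These shares include genes wholly under exons of other genes, which could receive no read. Of the 106, 58 were covered in this way and 48 were not, whereas 19486 of the 21278 genes at 0 in the whole table were not. The shares therefore do not show that members were detected less often. Over the libraries, a count of 0 allows a level of up to 0.0213 CPM (counts scaled to the library total), the level of 3 counts, and this covers counting error only. That limit has no meaning for the genes whose bases all lie under other exons, described further on. Nor does it hold as such for members with part of their bases shared or with several genomic sites, where reads were also dropped. Of the members not wholly covered, 4 and 19 of these kinds were at 0. The related class of C/D box snoRNAs, which guide 2′-O-methylation, had 184 of 311 genes (59.2%) at 0 and took 0.0454% of the counts. Of those 184, 99 were not wholly covered.

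The member counts were held by a handful of genes. SNORA73B, which acts in processing of the small-subunit ribosomal RNA and is not a typical pseudouridine guide, took 42.1% ± 1.74 of them (SD, n = 3). The 3 highest genes, SNORA73B, SCARNA13 and SCARNA5, took 60.3%, the 10 highest 82.8% and the 20 highest 90.8%. Of the 10 highest, 6 were SCARNA genes, although SCARNA genes are 25 of the 235 members, and 9 were longer than 150 bases, a length that 35 members exceed. How the recovery of short RNAs in these libraries bears on that order was not tested.

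**Figure D1:**
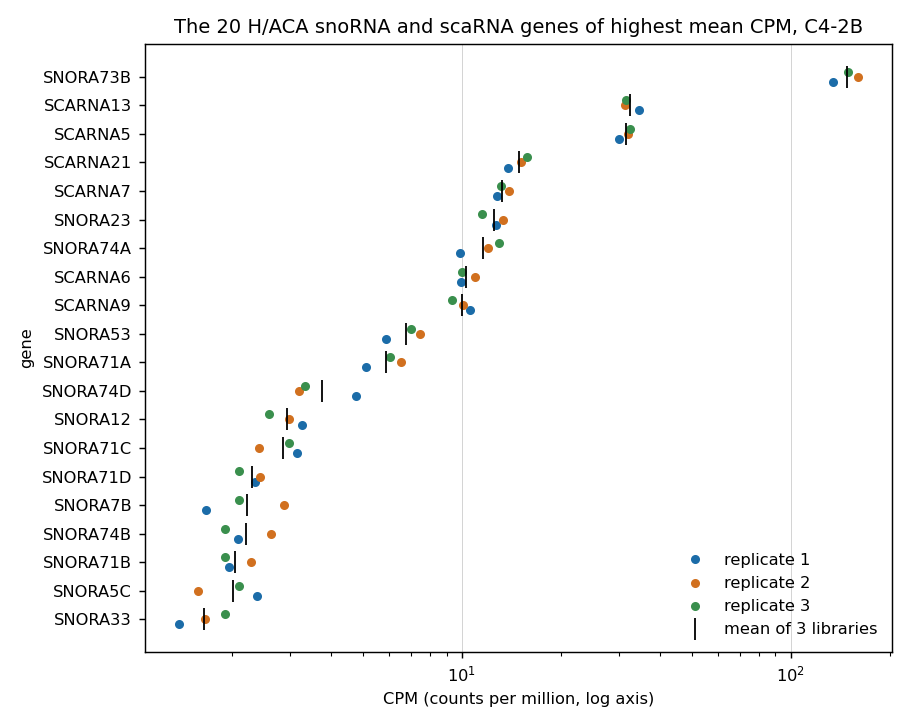
Level in CPM (log axis) of the 20 members with the highest mean CPM, with a point for each C4-2B replicate and a bar for the mean of 3 libraries. SNORA73B, at 148 CPM, stands apart from SCARNA13 and SCARNA5 at 32.5 and 31.6 CPM, and the replicates of most genes lie close together on this scale.

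SNORA73B (ENSG00000200087) lies on the plus strand at chr1:28508559-28508762 (GRCh38) in an intron of SNHG3, a long non-coding snoRNA host gene, and also within RCC1. Its relative SNORA73A lies 5′ of it at chr1:28507366-28507571, wholly within the annotated exons of SNHG3. Both sequences are shown because the RNAs were 93.2% identical and yet only SNORA73B had counts, with the ACA near the 3′ end in capitals.
SNORA73B: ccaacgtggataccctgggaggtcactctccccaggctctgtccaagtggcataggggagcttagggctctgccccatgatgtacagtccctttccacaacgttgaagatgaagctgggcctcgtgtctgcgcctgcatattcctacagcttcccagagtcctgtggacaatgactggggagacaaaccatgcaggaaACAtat
SNORA73A: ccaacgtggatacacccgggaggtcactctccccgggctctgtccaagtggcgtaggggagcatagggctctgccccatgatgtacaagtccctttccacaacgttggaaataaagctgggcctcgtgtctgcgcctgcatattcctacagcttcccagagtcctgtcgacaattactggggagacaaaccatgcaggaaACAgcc

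SNORA73B had 6073, 7977 and 6899 counts, or 135, 161 and 149 CPM. Replicate 1 was the lowest and replicate 2 the highest. Its mean was 148 ± 13 CPM (SD, n = 3), and SNORA73A had 0 counts in every library. Per length, SNORA73B reached 2266 TPM, 18.1 times the 125 TPM of SNHG3, and RCC1, a nuclear exchange factor for the GTPase Ran, stood at 120 TPM. SNORA73B also has a second genomic site at 90% identity or more, so its reads could be placed uniquely only where both sites differ. No base of SNORA73B lies under an exon of another gene, whereas all 206 bases of SNORA73A do. SNHG3 could receive no read at those 206 bases, which its length includes, so 125 TPM understates SNHG3 per countable base.

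**Figure D2:**
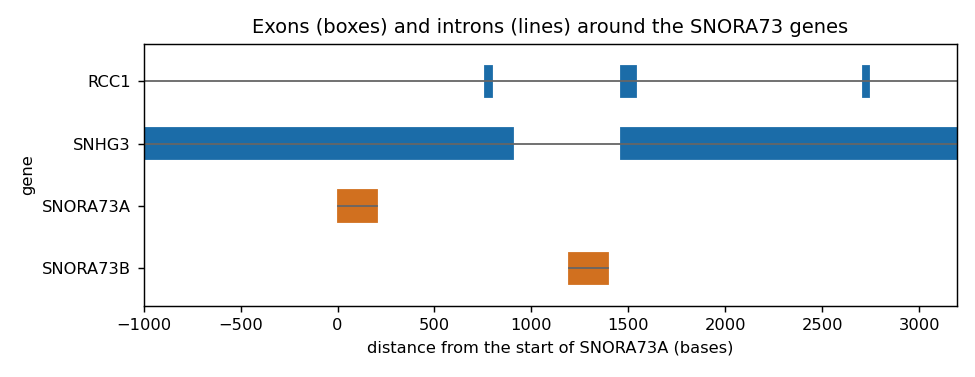
Exons (boxes) and introns (lines) of RCC1, SNHG3, SNORA73A and SNORA73B by distance in bases from the start of SNORA73A. SNORA73A lies inside an SNHG3 exon and has 0 counts, while SNORA73B lies in the next intron and has 20949 counts over the 3 libraries.

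The libraries were compared gene by gene by fitting its 3 counts to the scaled library sizes in a chi-square test, with the statistic divided by 2 since mates of a read pair were counted separately. Adjusted over 22229 genes by Benjamini-Hochberg, 1 of 66 members with at least 30 counts passed an adjusted p of 0.05, or 1.52%, beside 0.792% of all genes tested. It was SNORA73B, with an adjusted p of 3.94e-09 by the chi-square test and a spread of 0.25 on the log2 scale between its lowest and highest library. The median of that spread was 0.463 over the 66 members and 0.195 over all genes tested. SNORA73B thus spread less than the median member, and it had the most counts, with which smaller spreads pass this test. SNORA73B did not pass without replicate 1. Without the division, 6 members passed, or 9.09%, beside 17.3% of all genes: SNORA73B, SCARNA13, SNORA74A, SNORA74D, SNORA7B and SNORA2B. The test compares libraries, not conditions.

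SCARNA genes made up the next tier. SCARNA13, at chr14:95533355-95533629 on the minus strand in an intron of SNHG10, had 1560, 1551 and 1463 counts, or 32.5 ± 1.86 CPM (SD, n = 3). GLRX5, a mitochondrial iron-sulfur cluster protein gene on the opposite strand, covers 46.2% of its bases with exons. Reads over those bases could not be counted for it, so its level rests on the remaining bases. Per length it stood at 369 TPM, 11.4 times the 32.4 TPM of SNHG10. Both TPM values divide by the full gene length, including any bases whose reads could not be counted, so 369 TPM understates SCARNA13 per countable base. Its sequence is given as that of the highest scaRNA, with the terminal ACA in capitals.
SCARNA13: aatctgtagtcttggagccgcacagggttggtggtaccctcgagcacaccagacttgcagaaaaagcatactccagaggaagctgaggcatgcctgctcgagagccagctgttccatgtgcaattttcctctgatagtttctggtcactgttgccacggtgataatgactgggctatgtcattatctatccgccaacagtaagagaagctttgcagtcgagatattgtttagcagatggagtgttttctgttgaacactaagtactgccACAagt

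SCARNA5 and SCARNA6 share the host ATG16L1, an autophagy gene, on the plus strand of chromosome 2. SCARNA5, at chr2:233275727-233276002, had 1355, 1591 and 1503 counts, and SCARNA6, at chr2:233288676-233288940, had 447, 543 and 464. SCARNA5 was the higher in each library, without overlap. Their mean levels were 31.6 ± 1.28 and 10.3 ± 0.562 CPM (SD, n = 3), or 356 and 121 TPM, and both stood far above the 14.1 TPM of ATG16L1. They were 62.7% identical to each other. Both are shown because their ends carry the letters of C/D RNAs, with TGATGA (the C box) and CTGA (the D box) in capitals.
SCARNA5: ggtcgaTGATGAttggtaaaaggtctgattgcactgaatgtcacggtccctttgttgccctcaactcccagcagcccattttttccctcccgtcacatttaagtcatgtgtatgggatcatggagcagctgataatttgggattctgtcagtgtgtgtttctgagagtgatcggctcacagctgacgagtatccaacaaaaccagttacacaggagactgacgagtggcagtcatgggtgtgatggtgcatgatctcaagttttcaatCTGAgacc
SCARNA6: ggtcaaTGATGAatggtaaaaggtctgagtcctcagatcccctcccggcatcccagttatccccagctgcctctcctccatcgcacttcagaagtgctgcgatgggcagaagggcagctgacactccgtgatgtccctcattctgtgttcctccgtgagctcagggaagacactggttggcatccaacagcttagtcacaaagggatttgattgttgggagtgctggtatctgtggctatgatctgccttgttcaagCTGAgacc

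The other scaRNAs among the highest members were intronic in protein-coding genes. SCARNA21, in CHD3, a chromatin remodeller gene, had 623, 750 and 730 counts, and at 335 TPM it was above the 119 TPM of its host. SCARNA7, in KPNA4, a nuclear import receptor gene, had 577, 691 and 607 counts and stood at 126 TPM beside 44.9 TPM. SCARNA9, in CEP295, a centriole gene, had 475, 500 and 431 counts, with 42.2% of its bases under 2 other annotated entries. Across SCARNA21, SCARNA7 and SCARNA9 the replicates varied little, with an SD of 0.988, 0.577 and 0.623 CPM about means of 14.9, 13.3 and 9.99 CPM.

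Below these, SCARNA genes had few counts. Of the 25, 10 had at least 30 counts and 6 had 0 in every library. Of those at 0, 5 lay wholly under exons of other genes and could receive no read. The remaining 1 is an entry of SCARNA4 that overlaps the other SCARNA4 entry at the same locus. The 2 entries, of 128 and 129 bases, are 1 edit apart, so nearly all of its bases could not be counted either. SCARNA1 had 27, 26 and 24 counts, SCARNA8 had 8, 26 and 15, and SCARNA22 had 7, 19 and 23. SCARNA8 and SCARNA22 were lowest in replicate 1, but neither passed the chi-square test. SCARNA12 had 10, 12 and 11 counts with 88.5% of its bases under exons of its host PHB2, a prohibitin gene at 358 TPM.

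Among SNORA genes, SNORA23, in the import receptor gene IPO7, had 570, 661 and 533 counts, or 12.5 ± 0.913 CPM (SD, n = 3). SNORA53, in the mitochondrial phosphate carrier gene SLC25A3, had 265, 371 and 323 counts, with 10.4% of its bases under an SLC25A3 exon. SNORA12, in CWF19L1, had 147, 148 and 120 counts. The counts of SNORA23, SNORA53 and SNORA12 did not overlap in any library.

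The SNORA74 genes lie in different hosts. SNORA74A had 443, 594 and 599 counts and SNORA74D had 214, 159 and 154, and both lie in introns of the long non-coding gene SNHG4. Replicate 1 was the lowest for SNORA74A and the highest for SNORA74D, although they share that host, whose counts were 1132, 1298 and 1109. Their adjusted p-values by the chi-square test were 0.229 and 0.257, so neither difference between libraries passed. SNORA74B, in ATP6V0E1, a proton pump subunit gene, had 94, 130 and 88 counts.

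SNHG17, a long non-coding host on the minus strand of chromosome 20, holds 5 members. SNORA71A, at chr20:38427309-38427442, had 230, 324 and 280 counts, SNORA71C, at chr20:38429670-38429803, had 142, 120 and 138, and SNORA71D, at chr20:38433865-38433998, had 106, 121 and 97. SNORA71A was the highest of these in each library, and SNORA71C and SNORA71D came within 1 count of each other in replicate 2. SNORA71B, which is 272 bases long, had 88, 113 and 88 counts, and the entry named only SNORA71, wholly within exons of SNHG17, had 0. The pairs among SNORA71A, SNORA71C and SNORA71D were 82.8% to 86.6% identical, and their sequences are set side by side for that reason, with the final ACA in capitals.
SNORA71A: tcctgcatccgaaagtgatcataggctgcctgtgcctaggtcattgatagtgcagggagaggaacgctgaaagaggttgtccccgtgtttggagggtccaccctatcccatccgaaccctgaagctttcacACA
SNORA71C: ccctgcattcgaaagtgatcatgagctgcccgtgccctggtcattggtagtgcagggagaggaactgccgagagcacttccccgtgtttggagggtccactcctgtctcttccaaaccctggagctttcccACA
SNORA71D: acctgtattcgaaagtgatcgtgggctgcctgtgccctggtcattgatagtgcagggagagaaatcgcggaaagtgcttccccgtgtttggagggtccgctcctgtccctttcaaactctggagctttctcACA

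SNORA7A and SNORA7B differ by 2 edits over 139 bases, an identity of 98.6%. SNORA7A, at chr3:12840312-12840450, lies wholly in exons of RPL32, a ribosomal protein gene at 663 TPM, and had 0 counts in every library. SNORA7B, at chr3:129397210-129397348, lies in no protein-coding or long non-coding gene on its strand and had 75, 143 and 97 counts. Genes of other types, such as pseudogenes, were not searched. Replicate 2 was the highest for SNORA7B, with an adjusted p of 0.312 by the chi-square test. Reads inside the stretches that SNORA7A and SNORA7B share have several places in the genome and were not counted, so the level of SNORA7B rests on the rest of its reads. The capitals again mark the ACA.
SNORA7A: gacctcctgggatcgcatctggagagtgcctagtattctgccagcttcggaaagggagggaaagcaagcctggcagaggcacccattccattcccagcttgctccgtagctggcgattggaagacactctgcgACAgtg
SNORA7B: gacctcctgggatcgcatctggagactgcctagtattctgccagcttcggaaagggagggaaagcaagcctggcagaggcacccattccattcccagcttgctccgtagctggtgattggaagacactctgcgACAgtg

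The sequences held the letters that name the class in most members. ACA followed by 3 bases at the 3′ end was found in 154 members (65.5%), beside 1.61% of C/D snoRNA genes and 2.51% of 23433 other genes with lengths in the members' range. ACA anywhere in the last 12 bases was found in 80.9% of members and 16.3% of the other genes. The H box, ANANNA, was present in 97.9% of members, but also in 93.1% of the other genes, so its presence sets the members little apart, and its letters can overlap an ACA. All searches were on the sense strand. TGATGA within the first 15 bases together with CTGA within the last 12 was found in no SNORA gene, in 58.8% of C/D snoRNA genes and in 5 of 25 SCARNA genes. These were SCARNA5, SCARNA6, SCARNA7, SCARNA10 and SCARNA12, so the symbol rule takes in members with C/D letters, and 3 of them are among the 10 highest.

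To place the members beside the genes that carry them, the host was defined as the shortest protein-coding or long non-coding gene spanning the member on its strand. Genes of other types, such as pseudogenes, were not taken as hosts. A host so defined was found for 169 members, in 131 host genes, and 66 members had none. Hosts were protein-coding for 131 members and long non-coding for 38, with 26 in SNHG genes and 18 in genes of ribosomal proteins. Of the hosts, 22 carried 2 or more members, with TAF1D, a transcription factor subunit gene for RNA polymerase I, carrying the most (6 members) and SNHG17 5.

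Most members with at least 30 counts stood below their host per length. Of 58 such members with a host, 41 were below it in mean TPM and 17 above, 40 and 15 of them in every library. The members far above their hosts were SCARNA5 (25.3 times), SNORA73B, SCARNA13, SCARNA6 (8.60 times) and SNORA71A (4.59 times). SNORA30 stood at 26.9 times its host, but that host is an unnamed protein-coding gene at 0.197 TPM, and against SRCAP, a chromatin remodeller gene at 4.40 TPM that also spans it, SNORA30 had 5.31 TPM from 12, 12 and 7 counts. Of members in long non-coding hosts, 8 of 10 were above the host, and 8 of 14 members longer than 150 bases were, beside 9 of 44 shorter ones. Length and host type were not separated. Every host ratio given here uses full gene lengths, including host bases under other genes' exons, where no read could be counted. Such bases understate a host and raise the ratio. With shared bases taken out of all lengths, 16 members were above their host, beside 17.

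Members nearest to their host's level were SNORA79B (32.5 TPM beside 32.5 TPM for CCNB1IP1), SNORA13 (14 beside 13.4 TPM for EPB41L4A-AS1) and SNORA49 (24.4 beside 24.4 TPM for EP400). Each was above its host in some libraries and below in others, so their order with the host was within the spread of the replicates. Next above came SNORA23, SNORA71D and SNORA74D, at 1.17, 1.79 and 2.05 times the host. Next below came SNORA71B, SNORA47, SNORA5C and SNORA5A, at 0.785, 0.752, 0.658 and 0.504 times, SNORA5C and SNORA5A both in TBRG4, a mitochondrial RNA regulator gene.

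At the other end, 17 members stood more than 10 times below their host per length. In genes of the ribosome, SNORA33 in RPS12 was at 39.4 beside 1718 TPM, SNORA65 in RPL12 at 31.9 beside 607 TPM, and SNORA66 in RPL5 at 20.1 beside 554 TPM. SNORA75 in NCL, the nucleolin gene, was at 15.8 beside 288 TPM. SNORA33 had 62, 82 and 88 counts, lowest in replicate 1. The lowest ratios lay outside genes of the ribosome, at 0.00755 for the mostly covered SCARNA12 in PHB2 and 0.0170 for SNORA15 in CCT6A. SNORA15 has 3 genomic sites at 90% identity or more, and the SNORA75 gene in NCL has 2. Reads fitting several sites were not counted, so both may be understated. SNORA3B in RPL27A, a ribosomal protein gene, was at 0.221 times its host and so not among the 17. As single examples, RPS12, the highest of these hosts, carried a member far below SCARNA5, whose host stood at 14.1 TPM.

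**Figure D3:**
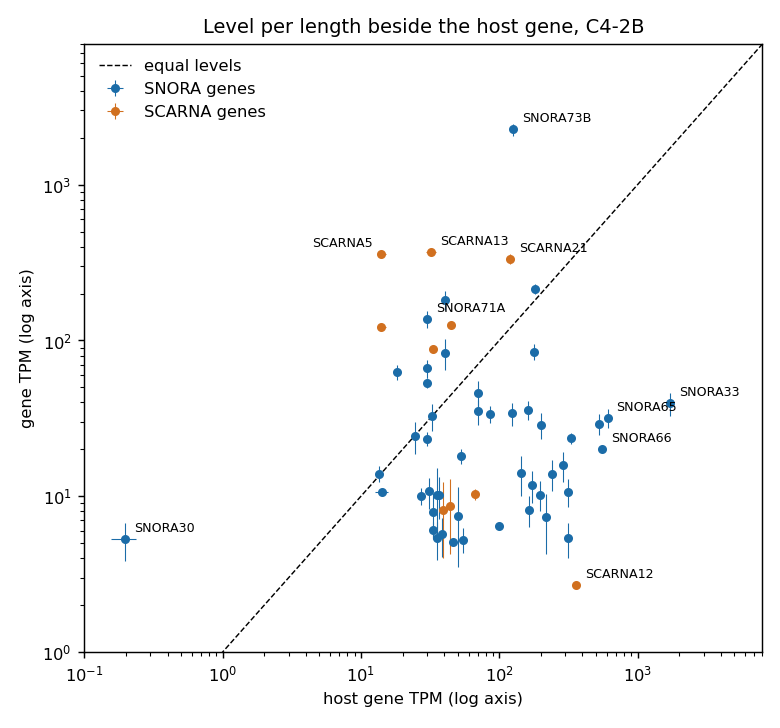
Mean TPM of 58 members with at least 30 counts (vertical, log axis) beside the mean TPM of their host gene (horizontal, log axis), with bars for the SD over 3 libraries and a dashed line of equal levels. SNORA73B, SCARNA5 and SCARNA13 lie above the line, while SNORA33, SNORA65 and SNORA66 in ribosomal protein genes lie below it.

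The same ratio was taken for 90 members that lie in an intron, share no base with another gene's exons and have a host with at least 30 counts. Its median was 0.145, and 16 members (17.8%) exceeded their host. For 131 C/D snoRNA genes chosen the same way the median was 0.0644 and 9 (6.87%) exceeded the host, and for 658 microRNA genes it was 0.0563 and 30 (4.56%) did. These differences between classes were not tested. Lengths differed too, with medians of 135, 82 and 80 bases, and within the members the median ratio was 0.119 up to 150 bases and 0.342 above. Over the 90 members, which share libraries and hosts, Spearman's rho between member and host TPM was 0.470. Whether reads of unspliced host transcripts entered the counts of intronic members was not tested.

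**Figure D4:**
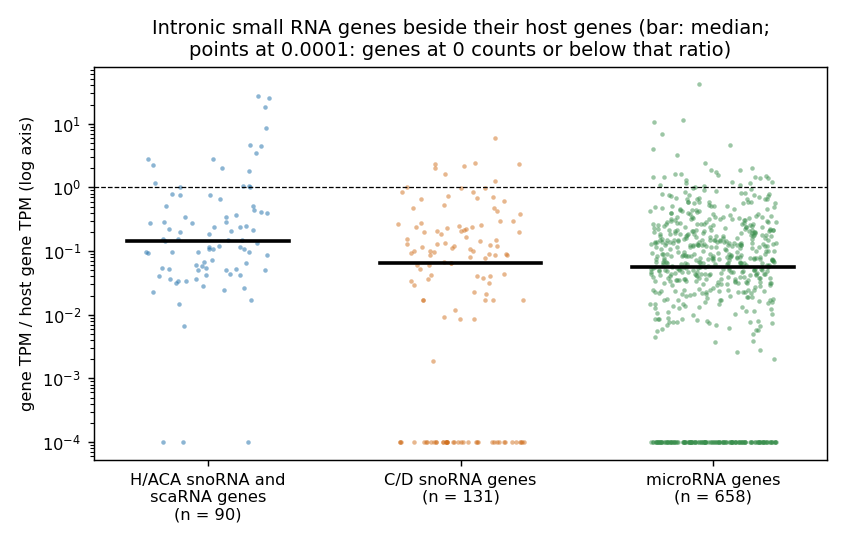
Ratio of a small RNA gene's TPM to its host gene's TPM (log axis) for 90 H/ACA snoRNA and scaRNA genes, 131 C/D snoRNA genes and 658 microRNA genes in introns, with a point per gene and a bar at the median. Medians lie at 0.145, 0.0644 and 0.0563, and points at the bottom edge are genes at 0 or below the axis range.

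A group of members could receive no count by the way the reads were assigned. The authors' counting leaves out a read that touches several genes' exons, so a gene whose bases all lie under other exons can receive no read. There were 58 such members (24.7%), beside 3.07% of all genes and 27.3% of C/D snoRNA genes, and all 58 had 0 counts. Of these, 52 lay wholly in exons of their host. Their 0 is a property of the annotation and says nothing about the RNA.

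The covered members include those in the most abundant hosts. SNORA10 and SNORA64 lie in exons of RPS2, at 1982 TPM, SNORA52 in RPLP2 (946 TPM), SNORA6 and SNORA62 in RPSA (761 TPM) and SNORA7A in RPL32. SNORA27 lies in RPL21 (407 TPM), SNORA21 and SNORA21B in RPL23 (375 TPM), and an SNORA70 gene in RPL10 (373 TPM). All of these hosts encode ribosomal proteins, and 12 of the 18 members in such genes were covered. In SNHG genes 16 of 26 were.

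Other hosts were affected as a whole. All 6 members in TAF1D, all 4 in EIF4A2, a translation initiation helicase gene, all 4 in SNHG12 and all 3 in SNHG7 were wholly covered. Both members of DKC1, the dyskerin gene, were at 0, SNORA56 wholly and SNORA36A for 88.6% under its exons. Among SCARNA genes, SCARNA2, SCARNA15, SCARNA16 and SCARNA17 were covered, SCARNA2 by an unnamed gene of only 0.413 TPM. The level of the covering gene plays no part in this rule, and SCARNA10, with 75.2% of its bases under a gene of 0 counts, had 4, 5 and 2.

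**Figure D5:**
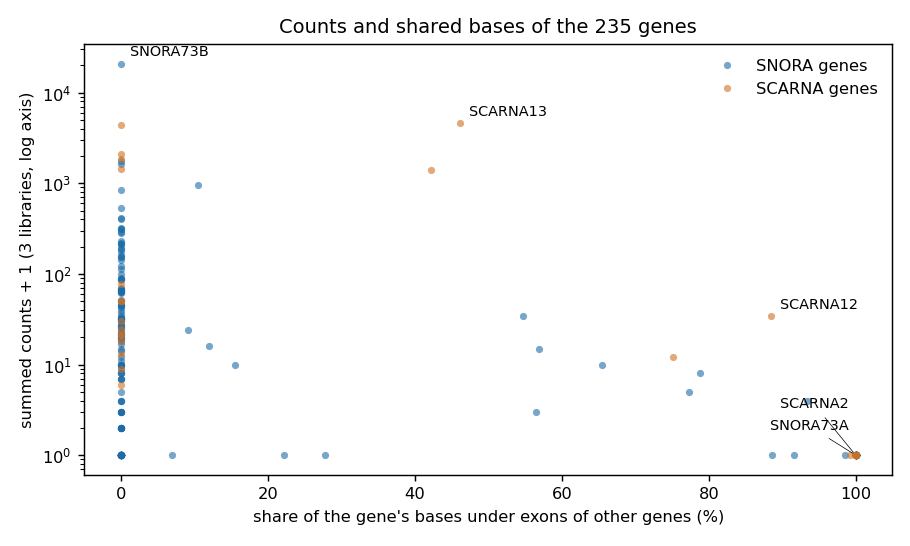
Summed counts over 3 libraries plus 1 (log axis) of the 235 members by the percentage of each gene's bases under exons of other genes. All 58 members at 100% lie at 0 counts, while SCARNA13 keeps 4574 counts with 46.2% of its bases shared.

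The other members comprised 16 with part of their bases shared, 69 with several genomic sites and 92 with a single site and no shared base. Of these 4, 19 and 25 were at 0. Among the 92, 18 of 31 without a host were at 0, and 7 of 61 in introns were. By host level, 6 of 9 with a host under 1 TPM were at 0, but only 1 of 52 with a host at 1 TPM or more. That gene is a SNORA72 in an intron of DEGS1, a sphingolipid enzyme gene at 360 TPM, and it was chosen after its values were seen.

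Repeated copies were found for 92 members, defined as at least 2 genomic sites with 90% identity over 90% of the length, and 42 of these had 0 counts, some of them also covered by exons. The most sites belonged to SNORA70H (11), SNORA40 (10), SNORA40B (10), the SNORA70 gene in RPL10 (8) and SNORA70B (7). SNORA70I, SNORA70J, SNORA40C and 2 further SNORA70 genes had 6 each. Of these, SNORA40B had 7, 9 and 10 counts in the libraries, SNORA70B had 4, 3 and 2, and SNORA70H had 0. Reads that fit several sites were not counted, so these counts are what could be placed at a single site. An identical second site was present for 8 members, 7 of them at 0, while SNORA59A, in the intron of VPS13D, had 15, 15 and 12 counts.

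A symbol named several genes in 12 cases, covering 75 genes, of which 45 had 0 counts. SNORA70 alone named 27 genes on 16 chromosomes, 15 of them at 0, with 93 counts in all. Its highest gene, in an intron of TMX1, a disulfide-forming enzyme gene of the endoplasmic reticulum, had 11, 9 and 12 counts. SNORA75 named 7 genes with 255 counts, led by the one in NCL with 24, 36 and 38 and by 1 on chromosome 12 without a host, with 21, 33 and 35. SNORA72 named 8 genes with 72 counts, SNORA62 and SNORA63 7 each with 28 and 10, SNORA73 and SNORA74 4 each with 12 and 22, and SNORA71 3 with 1. SCARNA4, SNORA16A, SNORA17B and SNORA50A each named 2 overlapping entries at 1 locus, and all were at 0. Both entries of SNORA16A and SNORA17B, and 1 entry each of SCARNA4 and SNORA50A, lay wholly under other exons. Those entries could receive no read. The other entries of SCARNA4 and SNORA50A overlap them, so few of their bases could be counted. Values for these families are uncertain per gene, and a sum by symbol mixes separate loci.

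Counts also differed between other related genes at distinct positions. SNORA5A had 213 counts and SNORA5B, 89.6% identical but covered by TBRG4 exons, had 0. SNORA3B had 212 and SNORA3A, covered by RPL27A exons, had 0. SNORA80A and SNORA80B, 91.9% identical and in introns of URB1 and ODC1, had 66 and 179. SNORA5B and SNORA3A, wholly covered, could receive no read, so their 0 says nothing about the RNA. SNORA80A and SNORA80B were both uncovered and both had counts.

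The proteins that bind or process H/ACA RNAs were measured from a list of 17 genes. Of the core proteins, DKC1, the pseudouridine synthase, stood at 86.2 ± 2.49 TPM (SD, n = 3), NOP10 at 401 TPM, NHP2 at 115 TPM and GAR1 at 17.4 TPM. The assembly factors NAF1 and SHQ1 stood at 13.4 and 15.9 TPM and the helicases RUVBL1 and RUVBL2 at 89.1 and 76.3 TPM. NOLC1, COIL and WRAP53, which act in the nucleolus and Cajal body, stood at 246, 35.7 and 23.3 TPM. Of the enzymes of 3′ end maturation, PARN was at 44.9, TOE1 at 19.0, TENT4B at 20.4 and EXOSC10 at 41.0 TPM. NOP10 was thus the highest and NAF1 the lowest of the genes of RNP core, assembly and maturation. Of the 17 genes, 9 have bases under exons of other genes, where reads could not be counted. Apart from TERC, the largest shares were 39.3% for EXOSC10, 27.4% for NHP2 and 23.5% for TOE1. TPM was not corrected for this.

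TERT, the telomerase reverse transcriptase, was at 6.25 TPM. TERC, the telomerase RNA and itself an H/ACA RNA outside the symbol rule, had 0, 3 and 4 counts, with 81.0% of its bases under an overlapping entry. Of the 16 genes in the list with at least 30 counts, 0 passed the chi-square test divided by 2, beside 0.792% of all genes, and 3 had an unadjusted p under 0.05, beside 2503 of the 22229 genes tested. Undivided, 3 of the 16 passed, DKC1, RUVBL2 and TENT4B, beside 17.3% of all genes, so the list was close to the background. Without replicate 2, RUVBL2 passed with an adjusted p of 0.0332 by the chi-square test.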

How the data were processed

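Total RNA of C4-2B cells was depleted of ribosomal RNA and made into directional paired-end libraries. Per the submitters' processing notes, reads were aligned with STAR 2.7.0f to GRCh38. The deposited tables hold unnormalised counts for each gene, made by the authors with featureCounts 1.6.3 and the Ensembl 90 annotation. Per the file headers, no strand, pairing or multi-mapping option was set, so reads of either strand were counted, mates were counted separately, and reads at several sites or over several genes were dropped. Gene length, the other deposited value used, is the union of exon bases.

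CPM used each library's total counts, and TPM the deposited lengths over all genes. Symbols and gene types came from GENCODE 44, which matched 57532 of 58302 identifiers, and all 235 members had the same coordinates there. Libraries were compared with a chi-square test of fit with 2 degrees of freedom on TMM-scaled sizes (edgeR 4.0.16), for genes with at least 30 counts, adjusted by Benjamini-Hochberg over 22229 genes. The test was also run on simulated data with known changes. Shared bases were computed from the deposited exons on both strands. Genomic sites were found with BLAST 2.17.0 in the GRCh38 reference sequence, from which printed sequences were also read. Groups came from sample titles. Alternatives covered DESeq2 1.42.0 size factors, total scaling, other minimum counts, each replicate left out and other definitions of host, cover and copy. 

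The members and lists were chosen with earlier results of these data known. Genes named are the 20 members of highest CPM, those past the threshold, hosts, the most abundant covering genes, the members with most copies, symbols with several genes, members nearest their host's level, SCARNA genes with at least 30 counts and the protein list. Others named were chosen after their values were seen. A gene that this rule names is not reported here. Reads without molecular identifiers are not independent molecules, so limits cover counting error only.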

Additional observations from a re-analysis of the deposited data

How the results depend on the processing

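No paired analysis was possible because C4-2B was the only group analysed here, so no groups were compared that could be paired by replicate number. Requiring 10 counts in each library left 53 members detected, beside 112 with at least 1. The members' share of all counts, 0.0352%, was 0.0204% without SNORA73B, 0.0378% of a total without the 10 highest genes and 0.0237% without SCARNA genes, and ranged from 0.0344% to 0.0360% with 1 replicate left out. The number of members differing between libraries, 1, was 6 with the chi-square undivided. Without SNORA73B, the only member past the threshold, it is 0 by construction. It ranged from 0 to 1 with 1 replicate left out, 0 being without replicate 1. With fewer libraries, fewer counts reach the minimum. It remained 1 with DESeq2 size factors, total scaling and other minimum counts. For the protein list the count of 0 became 3 undivided and ranged from 0 to 1, with RUVBL2 passing without replicate 2. Members with repeated copies numbered 29 at 95% identity and 166 at 80%, beside 92. Under the alternatives run, members above their host numbered 14 to 18 and wholly covered members 57 to 62. Of 24 named levels, 0 moved by over 1 SD with TMM. The analysed tables cover 1 cell line with 3 libraries, so no level is compared between conditions. Choices of reference class, box windows, the length split, and the omission of SNORA73B or SCARNA genes were made after seeing the data, as were the protein list's alternatives.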
